A study of Homo sapiens with 9 samples.

Results

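The genes described here are the FOS, JUN and EGR family transcription factors, taken by symbol from the count files: FOS, FOSB, FOSL1, FOSL2, JUN, JUNB, JUND, EGR1, EGR2 and EGR3. They are 10 of the 26364 genes in the files, and 8 of the 10 passed the filter on low counts. EGR2 and EGR3 did not pass it and are given by their counts. Poly(A) RNA was sequenced from MDA-MB-231, a human breast cancer line of the triple-negative, mesenchymal-like type, grown for 48 h in medium with 10% serum. The cells stably carried a pLVX lentiviral vector that was empty, that encoded MEL-18 in its wild-type form (MEL-18 WT) or as MEL-18 T334A, in which the threonine whose phosphorylation the study addresses is an alanine. Each of the 3 groups had 3 libraries, described as biological replicates. MEL-18 is the protein of PCGF2, a subunit of the Polycomb repressive complex PRC1. All 3 groups, the controls included, had been infected with lentivirus, and the labels do not say whether the replicates of a group came from separate infections. The p-values therefore measure the spread between these libraries of 1 line.

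FOS and JUN proteins join through a leucine zipper to form AP-1, a dimer that binds the sequence TGAGTCA. FOS, FOSB, JUNB and EGR1 are immediate early genes, and so are JUN, EGR2 and EGR3. Serum or growth factors raise the transcription of such genes within minutes through MAP kinases, SRF with its ternary complex factors, and CREB. Their short-lived mRNAs then fall again. JUN was lower with MEL-18 T334A than with MEL-18 WT without overlap of libraries (log2 fold change -0.07), but was not called. EGR2 and EGR3 did not pass the filter. Whether this class sets apart the members that were lower with MEL-18 T334A was not tested. FOSL1, which encodes FRA-1, is known as a major AP-1 subunit of mesenchymal-like breast cancer cells, EGR proteins are zinc-finger factors that bind GC-rich sites, and the NAB proteins are their corepressors.

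The libraries held 31643722 to 37005302 counts in genes, and 14738 genes were tested. PCGF2 was at 22.7 ± 0.88 CPM (counts scaled to library size, with TMM factors; SD, n = 3) with the empty vector, 1286 ± 6.55 with MEL-18 WT and 1420 ± 30.9 with MEL-18 T334A, as the labels say. VIM, a mesenchymal marker, was at 1430 to 1570 CPM, and ESR1, PGR and CDH1 stayed at or below 0.274 CPM, while GATA3, listed as low in this line, was at 6.44 to 7.82 CPM. The summed level of 3 endothelial markers (PECAM1, CDH5, VWF) was 1.98 to 2.41 CPM with the empty vector, 1.14 to 1.48 with MEL-18 WT and 0.592 to 0.962 with MEL-18 T334A. In that order PECAM1 averaged 0.951, 0.474 and 0.330 CPM and CDH5 0.948, 0.605 and 0.204. VWF did not follow, at 0.287, 0.246 and 0.273 CPM. These are low levels, with at most 40 counts of a marker in a library. The part of these markers in the results below was not tested. In bulk RNA, fewer cells that express a gene and less RNA per cell cannot be told apart.

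In the MEL-18 T334A cells, FOS, FOSB, JUNB and EGR1 were lower than in both other groups, with FOS at 30.6 CPM against 59.1 with the empty vector and 52.5 with MEL-18 WT. FOSL2 and JUN were lower with either MEL-18 form than with the empty vector. FOSL1 was higher with MEL-18 T334A than with MEL-18 WT, and JUND was called in no comparison of the main test.

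The 4 genes that were lower with MEL-18 T334A than in both other groups are shown here by the 250 bases before their RefSeq start, because they moved together. All 4 lie on the plus strand of GRCh38.p14, a later build than the one used for the counts. Capitals mark matches to TGACG (the core of a CREB site, also found inside TGACGTCA), TATAAA (the TATA box) and the CArG box bound by SRF, searched on both strands, so that CGTCA is TGACG on the minus strand.
FOS, chr14:75278578-75278827: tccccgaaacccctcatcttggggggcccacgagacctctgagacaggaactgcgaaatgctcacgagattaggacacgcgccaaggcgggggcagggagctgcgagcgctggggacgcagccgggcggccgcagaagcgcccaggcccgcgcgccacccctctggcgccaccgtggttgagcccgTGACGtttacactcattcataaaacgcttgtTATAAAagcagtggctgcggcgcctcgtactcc
FOSB, chr19:45467746-45467995: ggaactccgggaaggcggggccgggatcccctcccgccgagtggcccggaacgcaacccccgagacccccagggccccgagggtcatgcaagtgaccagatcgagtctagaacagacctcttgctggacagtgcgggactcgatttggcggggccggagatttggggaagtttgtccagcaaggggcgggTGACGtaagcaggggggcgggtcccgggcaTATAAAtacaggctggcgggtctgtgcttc
JUNB, chr19:12791236-12791485: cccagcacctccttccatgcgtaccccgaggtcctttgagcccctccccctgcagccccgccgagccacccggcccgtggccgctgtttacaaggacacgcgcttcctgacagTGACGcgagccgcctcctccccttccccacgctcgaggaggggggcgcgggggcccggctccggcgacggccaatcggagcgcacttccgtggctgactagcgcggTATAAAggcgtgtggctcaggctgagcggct
EGR1, chr5:138465229-138465478: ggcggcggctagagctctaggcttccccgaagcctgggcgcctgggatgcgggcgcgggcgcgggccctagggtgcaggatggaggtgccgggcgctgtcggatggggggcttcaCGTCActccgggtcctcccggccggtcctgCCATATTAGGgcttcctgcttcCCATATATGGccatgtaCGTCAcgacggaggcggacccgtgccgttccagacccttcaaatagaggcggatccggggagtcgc

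TGACG was found before the start of all 4, as a single match in FOS (64 to 60 bases before the start), FOSB (60 to 56) and JUNB (137 to 133), and as 2 matches in EGR1. TATAAA lay at 33 to 28 bases before the start of FOS, 30 to 25 of FOSB and 31 to 26 of JUNB, and no match was found in EGR1. EGR1 held 2 CArG boxes, at 105 to 96 and at 83 to 74 bases before its start. A CArG box lay at 71 to 62 in 1 window of EGR2. Sequence farther upstream was not searched, so a CArG box there would be missed. Over all windows of 250 bases before to 50 after a start in the same table, 28.4% of 27303 genes held TGACG, 13.99% held TATAAA and 1.60% a CArG box. TGACG was also in the windows of JUN, JUND and FOSL2 and in 1 of the 3 windows of EGR2, so that all 8 members with an entry held it. Of the other motifs searched, TGACGTCA was found in JUND alone among the members with an entry (2.25% of all genes), TGAGTCA in FOSL2 alone (6.05%), and GCGTGGGCG, the EGR site, in none (0.960%). FOSL1 and EGR3 had no entry.

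Per kilobase of exon, the level of the members in the empty vector cells spanned from FOSL1 to EGR3. FOSL1 stood at 110 ± 7.87 CPM per kb, followed by JUN at 36.6 ± 1.26, JUND at 22.6 ± 1.38, FOSL2 at 21.2 ± 1.12 and FOS at 18.3 ± 1.53 (SD, n = 3). EGR1 at 12.2 ± 0.73 and JUNB at 11.9 ± 1.06 CPM per kb came next, then FOSB at 1.72 ± 0.69, EGR2 at 0.0748 and EGR3 at 0.0169. The libraries of JUND and FOSL2, of FOSL2 and FOS, and of EGR1 and JUNB overlapped, so the order within those pairs is not set. The exon lengths come from GENCODE 29, which is not the annotation of the counts, and an error in a length moves a gene's place.

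Of the FOS family, FOS itself, which pairs with JUN more stably than JUN does with itself, had the largest change with MEL-18 T334A after FOSB. It was at 64.8, 56.3 and 56.2 CPM with the empty vector, 53.6, 53.5 and 50.5 with MEL-18 WT, and 30.0, 28.9 and 32.8 with MEL-18 T334A. The MEL-18 T334A libraries were lower than every other library, and the MEL-18 WT libraries lay just below those of the empty vector. The log2 fold change of MEL-18 T334A was -0.95 ± 0.05 (SE; adjusted p = 3.44e-14) against the empty vector and -0.78 ± 0.05 (adjusted p = 3.57e-12) against MEL-18 WT. That of MEL-18 WT against the empty vector was -0.17 ± 0.05 (adjusted p = 0.00727).

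FOSB, a close relative of FOS with a low level in these cells, had the largest fold change of the 8 tested members in each comparison. Its libraries were at 13.8, 8.68 and 6.21 CPM with the empty vector, at 4.70, 5.54 and 4.15 with MEL-18 WT, and at 1.58, 1.13 and 1.55 with MEL-18 T334A. The 3 groups did not overlap, but the empty vector libraries spread 2.21-fold from lowest to highest, a coefficient of variation of 40.3%. FOSB fell by 85.2% with MEL-18 T334A against the empty vector (log2 fold change -2.75 ± 0.22, adjusted p = 1.18e-10) and fell by 70.5% against MEL-18 WT (-1.76 ± 0.25, adjusted p = 3.03e-06). With MEL-18 WT it fell by 49.7% against the empty vector (-0.99 ± 0.17, adjusted p = 5.69e-05).

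FOSL1, the most abundant member, behaved otherwise. Its libraries were at 221, 211 and 192 CPM with the empty vector, 175, 195 and 187 with MEL-18 WT and 209.3, 221.5 and 230.9 with MEL-18 T334A. MEL-18 WT was lowest, but its highest library lay above the lowest of the empty vector. Its log2 fold change with MEL-18 WT against the empty vector was -0.17 ± 0.04 (adjusted p = 0.00376). FOSL1 rose with MEL-18 T334A against MEL-18 WT (log2 fold change 0.25 ± 0.04, adjusted p = 3.07e-05), and its difference from the empty vector, 0.08 ± 0.04, did not pass (adjusted p = 0.109). The 40 tested genes nearest to FOSL1 on its chromosome, 20 on each side, had a median log2 difference of 0.16 between both MEL-18 forms, and of -0.09 between MEL-18 WT and the empty vector. With an offset from these neighbours the FOSL1 difference between both forms was 0.09 (adjusted p = 0.125) and that with MEL-18 WT -0.07 (adjusted p = 0.287), and neither passed the test.

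FOSL2, which encodes FRA-2, was at 143, 157 and 156 CPM with the empty vector, 114, 107 and 112 with MEL-18 WT and 119, 126 and 109 with MEL-18 T334A. Every MEL-18 library lay below every empty vector library, and both MEL-18 groups overlapped. The log2 fold change was -0.46 ± 0.04 with MEL-18 WT (adjusted p = 3.2e-09) and -0.36 ± 0.04 with MEL-18 T334A (adjusted p = 7.07e-08). The median of its chromosomal neighbours was -0.12 and -0.25 in those comparisons. With an offset from these neighbours the change with MEL-18 T334A was -0.11 (adjusted p = 0.0407). Between both MEL-18 forms the difference was 0.09 ± 0.04 (adjusted p = 0.0914), which became 0.23 (adjusted p = 1.3e-04) with the offset, 0.15 (adjusted p = 0.00112) without MEL-18 T334A replicate 3, and 0.09 (adjusted p = 0.0410) with no filter on low counts.

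**Figure D1:**
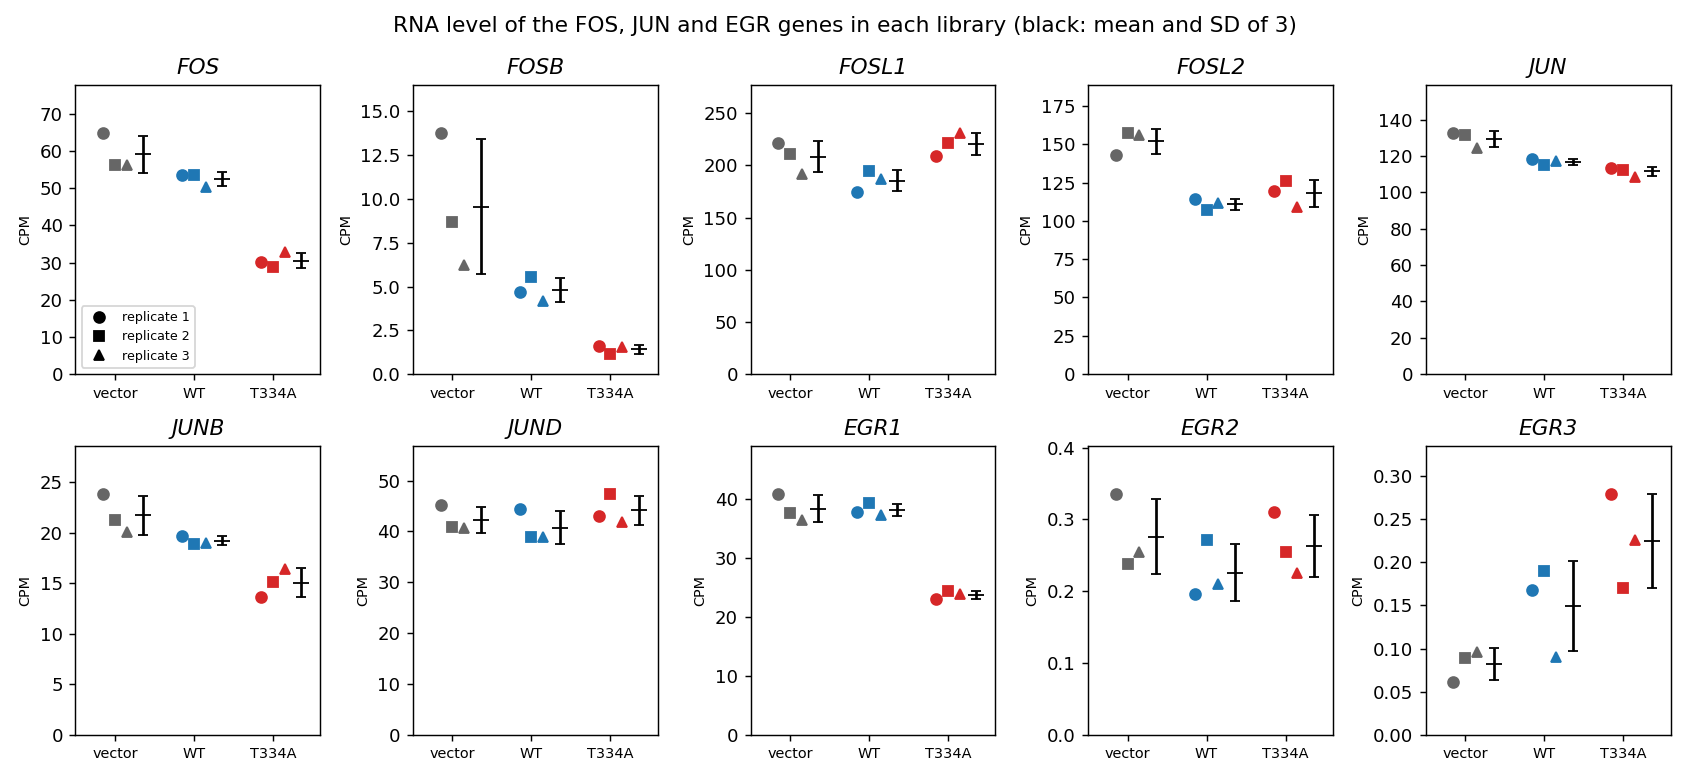
Level in CPM of the 10 members in each library (y axis, 1 panel a gene; x axis, the 3 groups), with the marker shape giving the replicate and black marks the mean ± SD of 3 libraries. FOS, FOSB, JUNB and EGR1 are lowest in the MEL-18 T334A libraries, with FOS at 28.9 to 32.8 CPM there, as is JUN by less, while FOSL1, FOSL2 and JUND are not.

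Of the JUN family, JUN, which can bind DNA as a homodimer or with a FOS protein, changed less. It was at 133, 132 and 124 CPM with the empty vector, 118, 115 and 117 with MEL-18 WT and 114, 112 and 109 with MEL-18 T334A. The groups did not overlap. Against the empty vector the log2 fold change was -0.15 ± 0.03 with MEL-18 WT (adjusted p = 5.94e-04) and -0.22 ± 0.03 with MEL-18 T334A (adjusted p = 2.59e-06). The difference between both MEL-18 forms, -0.07 ± 0.03, did not pass (adjusted p = 0.0839).

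JUNB, a weaker activator than JUN and itself an immediate early gene, was at 23.8, 21.2 and 20.05 CPM with the empty vector, 19.7, 18.9 and 19.0 with MEL-18 WT and 13.6, 15.1 and 16.4 with MEL-18 T334A. The MEL-18 T334A libraries were the lowest, below those of both other groups. The log2 fold change of MEL-18 T334A was -0.52 ± 0.06 (adjusted p = 2e-07) against the empty vector and -0.35 ± 0.07 (adjusted p = 1.1e-04) against MEL-18 WT. That of MEL-18 WT against the empty vector was -0.18 ± 0.06 (adjusted p = 0.0305). JUND, the JUN gene known for steady expression in quiescent cells, was at 40.6 to 45.1 CPM with the empty vector, 38.9 to 44.5 with MEL-18 WT and 41.9 to 47.4 with MEL-18 T334A. These ranges overlapped, and its log2 fold changes of -0.05, 0.07 and 0.12 had adjusted p of 0.529, 0.323 and 0.0778. The last, between both MEL-18 forms, became a call without MEL-18 WT replicate 1 (0.18, adjusted p = 0.00852) or MEL-18 T334A replicate 3 (0.15, adjusted p = 0.0119), with library totals alone (0.13, adjusted p = 0.0470) and with no filter on low counts (0.11, adjusted p = 0.0346).

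Of the EGR family, EGR1, an immediate early gene whose promoter is a textbook target of SRF, was the abundant one. Its libraries were at 40.9, 37.7 and 36.5 CPM with the empty vector, at 37.8, 39.3 and 37.4 with MEL-18 WT and at 23.1, 24.4 and 23.8 with MEL-18 T334A. The libraries of the empty vector and MEL-18 WT were interleaved, and those of MEL-18 T334A lay apart below them. EGR1 fell by 38.0% with MEL-18 T334A against the empty vector (log2 fold change -0.69 ± 0.05, adjusted p = 3.04e-12) and fell by 37.7% against MEL-18 WT (-0.68 ± 0.05, adjusted p = 4.98e-12). With MEL-18 WT against the empty vector the value was -0.01 ± 0.04 (adjusted p = 0.921).

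EGR2 and EGR3 gave few reads. EGR2 had 11, 8 and 8 counts with the empty vector, 7, 10 and 7 with MEL-18 WT and 10, 9 and 8 with MEL-18 T334A. Its ratio over the summed counts was 0.821 (95% exact interval 0.454 to 1.48) for MEL-18 WT and 0.949 (0.536 to 1.68) for MEL-18 T334A, both against the empty vector and for counting error only, so that a change as large as that of EGR1 was not detectable at this depth. EGR3 had 2, 3 and 3 counts with the empty vector, 6, 7 and 3 with MEL-18 WT and 9, 6 and 8 with MEL-18 T334A. The MEL-18 T334A libraries lay above those of the empty vector, with a ratio of 2.73 (1.18 to 7.06). With no filter on low counts, EGR3 was tested, and its log2 fold change of 1.41 did not pass (adjusted p = 0.0663).

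Counted over the 8 tested members, MEL-18 T334A had 6 lower and 0 higher than the empty vector, where 22.5% of all tested genes were called lower and 23.4% higher, 45.9% in either direction. The other 2, FOSL1 and JUND, were not called. The median log2 fold change of the 8 was -0.44, beside -0.00220 over all tested genes, and the libraries of the 6 did not overlap (25.2% of all tested genes were lower in that way). Against MEL-18 WT, 4 of 8 were lower (20% of all tested genes) and 1, FOSL1, was higher (21%), with a median of -0.21. Replicates did not overlap for 5 lower members, JUN besides the 4 (24% of all tested genes), and for FOSL1 as the 1 higher (24.7%). The 6 lower members against the empty vector, and FOS, FOSB, JUNB and EGR1 against MEL-18 WT, were called lower in each of the 18 alternatives run.

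With MEL-18 WT, 6 of the 8 were lower than with the empty vector and 0 higher, where 14.4% of all tested genes were called in each direction; the median was -0.17. Replicates did not overlap for 5 of the 6, all but FOSL1, against 21.3% of all tested genes; none was higher without overlap, against 21.4%. This count rests in part on 1 library: empty vector replicate 1 was the highest of its group for 7 of the 8 tested members, all but FOSL2. Empty vector replicate 3 was the lowest for 7 of the 8. Among genes of like level, the share with a higher coefficient of variation in that group ran from 0% (FOSB) to 21.3% (JUN) over the members. Without empty vector replicate 1, 3 members were lower, FOSB (log2 fold change -0.63), FOSL2 and JUN. FOS was then at -0.10 (adjusted p = 0.124), FOSL1 at -0.12 (0.0515) and JUNB at -0.10 (0.264). JUNB also lost its call when empty vector replicate 2 (adjusted p = 0.0517), MEL-18 WT replicate 2 (0.103) or MEL-18 WT replicate 3 (0.0935) was left out. FOS lost its call without MEL-18 WT replicate 3 (0.0619), and FOSL1 without MEL-18 WT replicate 1 (0.0505). Both comparisons with the empty vector share its 3 libraries.

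**Figure D2:**
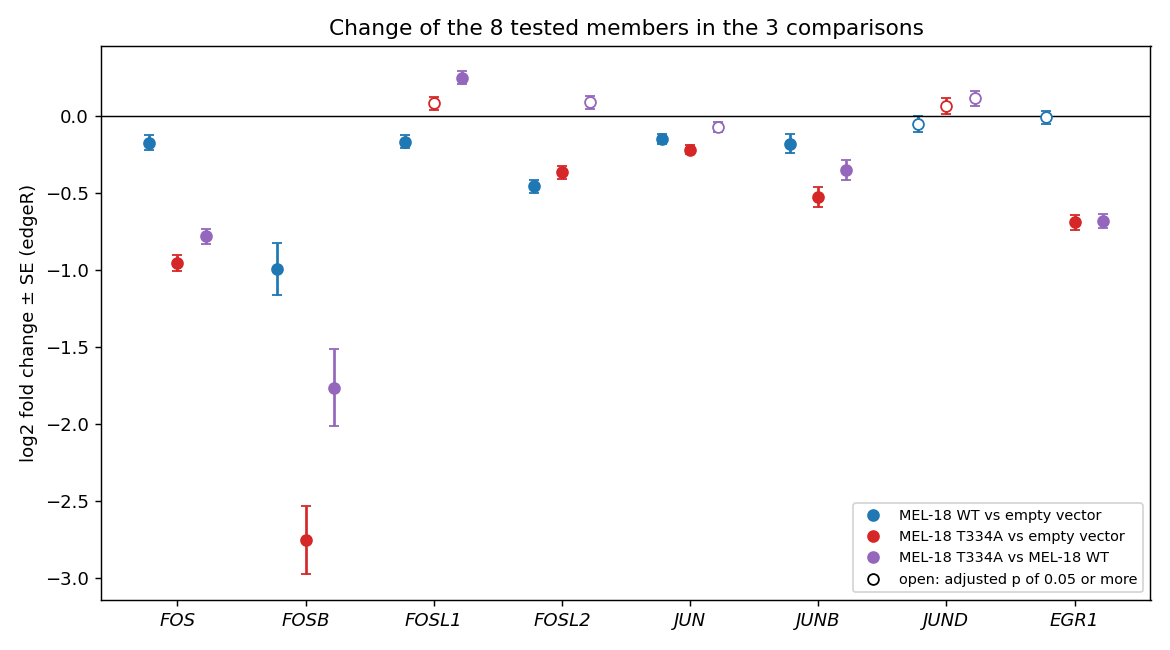
Log2 fold change with its SE (y axis) of the 8 tested members in the 3 comparisons; open marks did not pass the adjusted p threshold of 0.05. FOS, FOSB, JUNB and EGR1 lie below 0 in both comparisons that hold MEL-18 T334A, FOSB lowest at -2.75.

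**Figure D3:**
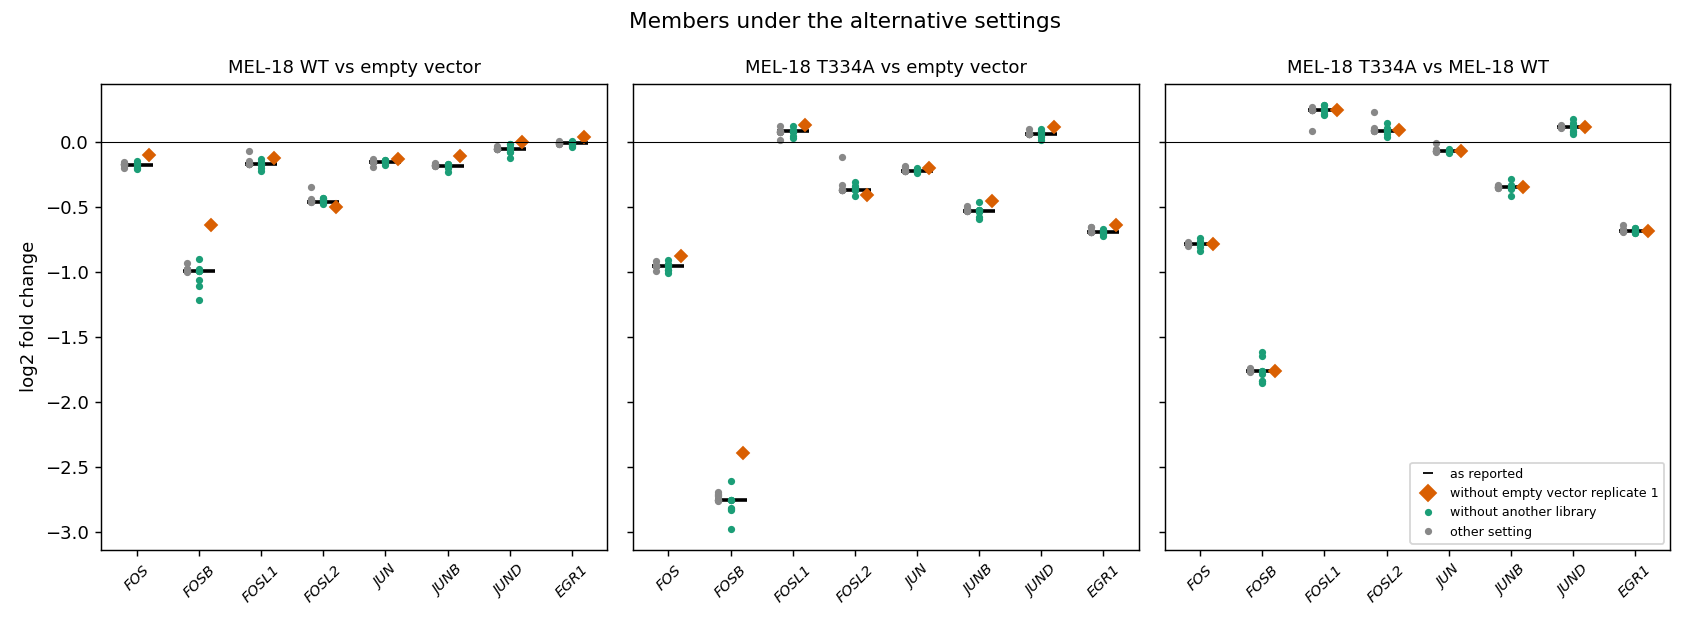
Log2 fold change of the tested members (y axis) under the processing alternatives; the orange diamond leaves out empty vector replicate 1. Without that library FOSB with MEL-18 WT moves from -0.99 to -0.63.

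The mixture of subunits was read as each gene's share of its family's counts. FOSL1 held 48.5% ± 1.61 of FOS family counts with the empty vector, 52.4% ± 1.89 with MEL-18 WT and 59.5% ± 1.96 with MEL-18 T334A (SD, n = 3), and no group overlapped another. The share of FOS was 13.8% ± 0.83, 14.8% ± 0.57 and 8.25% ± 0.57, lower with MEL-18 T334A than in both other groups without overlap. FOSB went from 2.21% ± 0.82 to 1.36% ± 0.18 and 0.384% ± 0.075, and the first 2 of these groups overlapped. FOSL2 stood at 35.5%, 31.4% and 31.9%, with overlap in each comparison.

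In the JUN family, JUN held 67.0%, 66.1% and 65.3% of the counts in empty vector cells and with MEL-18 WT and MEL-18 T334A, in that order, with overlap. The JUNB share was 11.2% ± 0.54, 10.8% ± 0.06 and 8.83% ± 0.93, and that of JUND 21.8% ± 0.67, 23.02% ± 1.16 and 25.8% ± 1.10. With MEL-18 T334A the JUNB share was below, and the JUND share above, those of both other groups, without overlap. Wherever 2 groups did not overlap, the exact two-sided permutation p was 0.1, the smallest that 3 against 3 libraries allow, and 0.176 after adjustment over the 30 share comparisons, so no share difference could pass 0.05. Shares of counts are not shares of molecules, since longer mRNAs give more fragments, and a share can rise because others fall: the FOSL1 level did not pass the test between MEL-18 T334A and the empty vector.

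**Figure D4:**
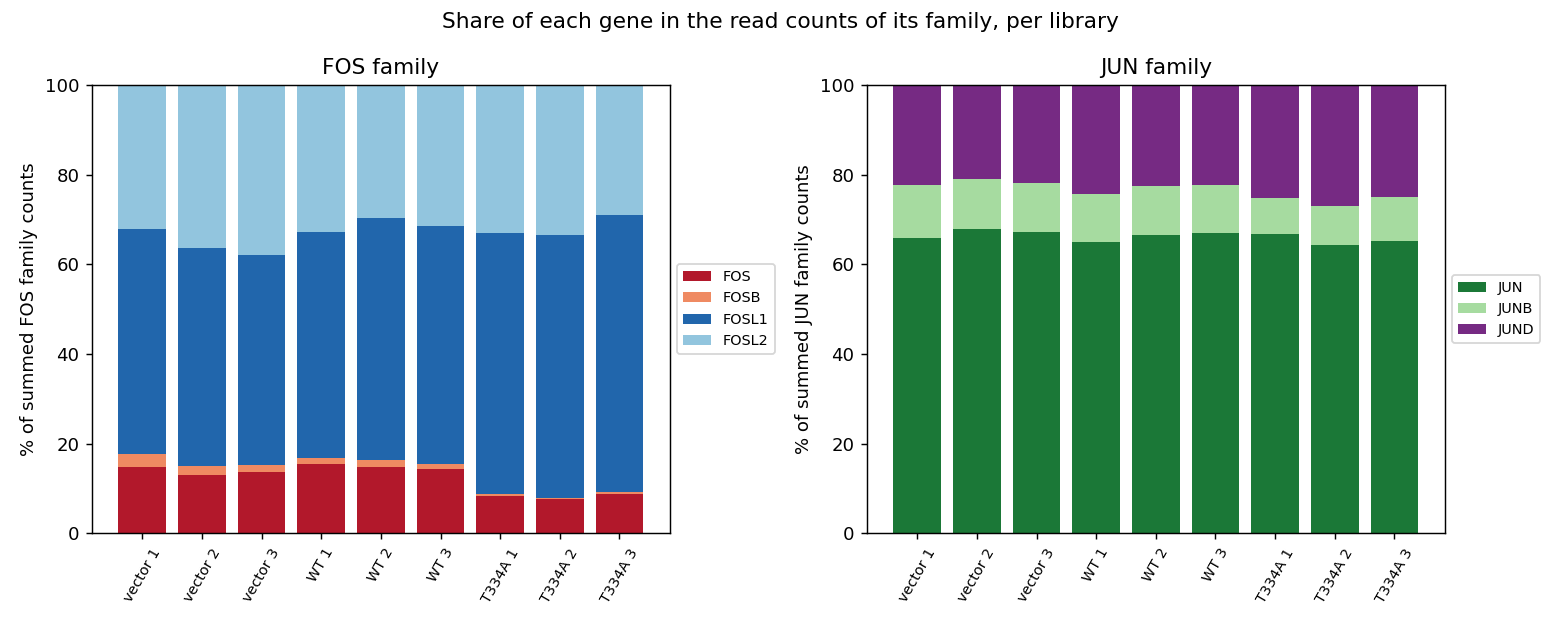
Percent of FOS family counts and of JUN family counts (y axis) held by each gene in each of the 9 libraries (x axis). The FOSL1 part widens from 48.5% with the empty vector to 59.5% with MEL-18 T334A on average, and the FOS and FOSB parts narrow.

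More of the other immediate early genes were called lower than higher in both comparisons with MEL-18 T334A. Of 31 tested, 15 were lower and 4 higher than with the empty vector (median log2 fold change -0.14; 22.5% of all tested genes were lower and 23.4% higher), and 14 were lower and 4 higher than with MEL-18 WT (median -0.14; 20% and 21% of all tested genes). The 4 higher than with the empty vector became 2 without empty vector replicate 2 and 7 with library totals alone. DUSP1, a phosphatase that switches off MAP kinases, was at 132 ± 3.15 CPM with the empty vector, 87.3 ± 5.47 with MEL-18 WT and 65.6 ± 2.36 with MEL-18 T334A. Its log2 fold changes were -0.60 and -1.01 against the empty vector and -0.41 between both forms. NFKBIA, the inhibitor of NF-kB, fell by 0.44 and 0.50 on the log2 scale against the empty vector. NR4A2, an orphan nuclear receptor, fell by 0.42 and 0.76 against it, and by 0.34 with MEL-18 T334A against MEL-18 WT, a call lost in 5 of 18 alternatives, among them the fits that leave out MEL-18 WT replicate 1 (adjusted p = 0.181) and MEL-18 T334A replicate 1 (0.0558) or 3 (0.109). ZFP36L1, which destabilises AU-rich mRNAs, fell by 0.35 with MEL-18 T334A against MEL-18 WT.

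Some immediate early genes rose instead. ARC rose with MEL-18 T334A by a log2 fold change of 0.58 against the empty vector and 0.62 against MEL-18 WT, RHOB by 0.18 and 0.16, and KLF2 by 0.40 against MEL-18 WT. With MEL-18 WT, 10 of the 31 were lower and 6 higher than with the empty vector, where 14.4% of all tested genes were called in each direction. The median was 0.000133. Over all tested genes the medians were -0.00165 (MEL-18 WT) and -0.00220 (MEL-18 T334A) against the empty vector and -0.00326 between both forms, the base for the medians of the lists below, given in that order. ATF3, a stress-induced bZIP factor, rose by 0.38. BTG2 rose by 0.45 and was not called without empty vector replicate 2 (0.31, adjusted p = 0.0997). NR4A1 was at 0.38 (adjusted p = 0.0307), a call lost with DESeq2 (0.102) and when any empty vector library or MEL-18 WT replicate 2 or 3 was left out (0.0536 to 0.194). The higher count with MEL-18 WT was 3 without empty vector replicate 2.

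Among 17 tested bZIP genes whose products can pair with AP-1 subunits, 4 were higher and 1 lower with MEL-18 WT against the empty vector. With MEL-18 T334A, 2 were higher and 6 lower against it. Of all tested genes, 14.4% were called in each direction with MEL-18 WT, and 23.4% were higher and 22.5% lower with MEL-18 T334A. Between both forms 21% of all tested genes were higher and 20% lower. The list's medians were -0.0154, -0.0599 and -0.0890. BATF3 was called higher in all 3 comparisons, with log2 fold changes of 0.41 (MEL-18 WT) and 0.63 (MEL-18 T334A) against the empty vector and 0.22 between both forms. The last was not called without MEL-18 T334A replicate 1 (adjusted p = 0.0674), with DESeq2 (0.0606) or with the neighbour offset, which lowered it to 0.10 (adjusted p = 0.303). JDP2, a repressor of AP-1, rose by 0.45 and 0.34. DDIT3 fell by 0.42 with MEL-18 T334A against the empty vector. The 6 lower genes became 3 without empty vector replicate 1 or with library totals alone, and the 1 lower with MEL-18 WT (ATF7) ranged from 0 to 2 over the alternatives, with 0 when empty vector replicate 1 or MEL-18 WT replicate 1 or 2 was left out. Between both MEL-18 forms, 6 were lower and 2 higher; the 2 higher became 0 with the neighbour offset, and the 6 became 2 when MEL-18 T334A replicate 1 was left out, and 3 when MEL-18 T334A replicate 2 or MEL-18 WT replicate 1 was.

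Upstream of these genes, 6 genes of SRF, its cofactors and the ternary complex factors were tested. With MEL-18 WT, 1 was higher and 2 were lower than with the empty vector, and with MEL-18 T334A again 1 and 2. Between both forms 2 were higher and 1 lower. Medians of the 6 were -0.0250, -0.00950 and -0.0341. Of all tested genes, 14.4% were called in each direction with MEL-18 WT, and 23.4% were higher and 22.5% lower with MEL-18 T334A. Between both forms 21% of all tested genes were higher and 20% lower. The 2 lower with MEL-18 WT (ELK3 and MKL1) became 0 without MEL-18 WT replicate 1 or 3, without empty vector replicate 2 and with library totals alone, and 1 when any of the other libraries of both groups was left out. The 1 higher with MEL-18 T334A (ELK4) became 0 without MEL-18 T334A replicate 1 and with the neighbour offset, and 2 with library totals alone. ELK4 also lost its call without empty vector replicate 2 (0.08, adjusted p = 0.0761), though the list still held 1 higher gene in that fit. The 2 lower with MEL-18 T334A became 1 without empty vector replicate 2. The 2 higher between both forms became 1 when MEL-18 WT or MEL-18 T334A replicate 1 was left out. SRF rose by 0.13 on the log2 scale with MEL-18 WT against the empty vector and fell by 0.16 with MEL-18 T334A against MEL-18 WT. ELK1 fell by 0.15 with MEL-18 T334A against the empty vector (not called without empty vector replicate 2, adjusted p = 0.109, or with the neighbour offset, at -0.08 with an adjusted p of 0.211), and MKL1, a cofactor of SRF, rose by 0.22 against MEL-18 WT. NAB1, 1 of the 2 EGR corepressors, fell with MEL-18 T334A by 0.13 against the empty vector and 0.11 against MEL-18 WT; the first call was lost without empty vector replicate 3 (adjusted p = 0.0609) or MEL-18 T334A replicate 2 (0.0805), and the second without MEL-18 WT replicate 3 (0.0664) or MEL-18 T334A replicate 2 (0.174), with the neighbour offset (-0.07, adjusted p = 0.188), with DESeq2 (0.0530) and with library totals alone (0.0530).

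Of 33 tested genes of the MAP kinase cascades, 11 were higher and 8 lower with MEL-18 T334A than with the empty vector, where 23.4% and 22.5% of all tested genes were, and 4 were higher and 5 lower with MEL-18 WT, where 14.4% of all tested genes were called in each direction. MAPK11, a p38 kinase, rose from 5.93 ± 0.35 CPM with the empty vector to 9.40 ± 0.24 with MEL-18 WT and 13.004 ± 0.75 with MEL-18 T334A, a log2 fold change of 0.67 and 1.14. MAP2K3, a kinase of p38, fell by 0.16 and 0.26, and RPS6KA2, an ERK-activated kinase, rose by 0.17 and 0.31, the first not called without empty vector replicate 1 (adjusted p = 0.0642). Between both MEL-18 forms 10 were higher and 8 lower (21% and 20% of all tested genes), and the medians were -0.00336, -0.0333 and -0.00690. EGFR rose there by 0.30, beside a neighbour median of 0.18. The 8 lower genes became 2 with the neighbour offset, 3 with library totals alone or when MEL-18 T334A replicate 2 was left out, 4 when MEL-18 WT replicate 1 or 2 was, and 5 when MEL-18 WT replicate 3 was. The 5 lower with MEL-18 WT became 2 with the neighbour offset or without MEL-18 WT replicate 3.

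Genes that ERK signalling induces, several of which feed back on it, differed by comparison in their counts. With MEL-18 WT, 10 of 16 were lower than with the empty vector and 2 higher, where 14.4% of all tested genes were called in each direction. The median log2 fold change was -0.15, beside medians of -0.0518 and 0.0314 in the other comparisons. SPRY4, an inhibitor of receptor tyrosine kinase signalling, fell by 0.26, and DUSP5, an ERK phosphatase, rose by 0.22 beside a neighbour median of 0.13. With the neighbour offset DUSP5 was at 0.0862 (adjusted p = 0.0499). The 2 higher genes, DUSP5 and CCND1, became 1 with that offset and when empty vector replicate 1 or 3 or MEL-18 WT replicate 2 or 3 was left out. With MEL-18 T334A, 6 were lower and 3 higher than with the empty vector, where 22.5% and 23.4% of all tested genes were. Among the lower was EPHA2, which fell by 0.23. Against MEL-18 WT, 6 were higher and 4 lower (21% and 20% of all tested genes). DUSP4 rose by 0.50 (neighbour median 0.36), SPRY4 by 0.28 and ETV4 by 0.28. The 4 became 2 without MEL-18 WT replicate 2 or 3. SPRED2 fell by 0.34 with MEL-18 T334A against the empty vector, and its neighbours had a median of -0.31. With the neighbour offset SPRED2 was at -0.02 and not called.

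Genes often named as AP-1 targets moved in both directions. Of 16 tested, 4 were higher and 5 lower with MEL-18 WT than with the empty vector. With MEL-18 T334A, 4 were higher and 6 lower than with it. Of all tested genes, 14.4% were called in each direction with MEL-18 WT, and 23.4% were higher and 22.5% lower with MEL-18 T334A. Between both forms 21% of all tested genes were higher and 20% lower. Medians were -0.0477, 0.00808 and 0.0116. MMP1, a collagenase with an AP-1 site in its promoter, rose from 0.644 ± 0.057 CPM with the empty vector to 2.39 ± 0.12 and 2.41 ± 0.39 (log2 fold change 1.89 and 1.90). CXCL8 was at 2.05 ± 0.20, 1.29 ± 0.20 and 1.15 ± 0.14 CPM, and fell by 0.84 with MEL-18 T334A. IL11 fell by 0.54 and 0.38. The 4 higher with MEL-18 WT became 2 with the neighbour offset and when empty vector replicate 3 or MEL-18 WT replicate 2 was left out, and the 4 higher with MEL-18 T334A became 2 with the neighbour offset. Between both MEL-18 forms, 3 were higher and 3 lower: PLAU rose by 0.37 (neighbour median 0.24), and VEGFA fell by 0.22. The 3 lower became 1 without MEL-18 WT replicate 2.

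Of 10 tested genes named as EGR1 targets, 6 were higher and 2 lower with MEL-18 T334A than with the empty vector. Of all tested genes, 23.4% were higher and 22.5% lower there. With the neighbour offset the 6 became 2. With MEL-18 WT, 5 were higher and 1 lower than with the empty vector, where 14.4% of all tested genes were called in each direction. The 1 lower became 2 without empty vector replicate 1 or MEL-18 T334A replicate 3. Between both forms 2 were higher and 3 lower (21% and 20% of all tested genes). The list had medians of 0.0726, 0.148 and 0.00194. F3, the tissue factor gene, was at 699 ± 18.8 CPM with the empty vector, 880 ± 19.99 with MEL-18 WT and 580 ± 60.5 with MEL-18 T334A, and fell by 0.60 on the log2 scale between both MEL-18 forms. ICAM1 rose by 0.86 with MEL-18 WT and 0.49 with MEL-18 T334A against the empty vector.

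**Figure D5:**
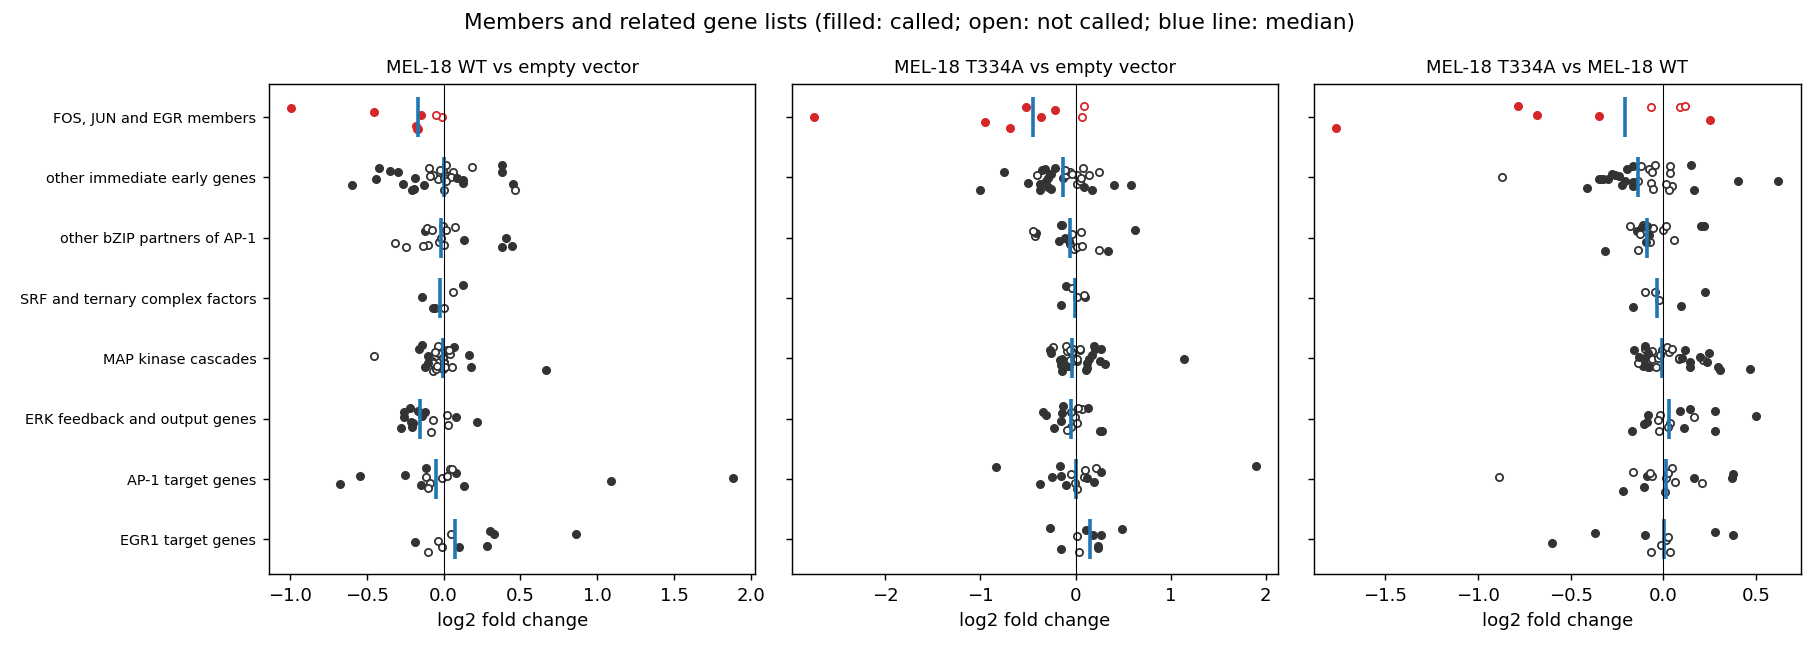
Log2 fold change (x axis) of the members and of the genes of 7 related lists, in the 3 comparisons; filled points passed the test and the blue line is the list's median. The members' median lies at -0.44 for MEL-18 T334A against the empty vector, and that of the other immediate early genes at -0.14.

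The genes whose pattern over the 9 libraries lay closest to FOS, FOSB and EGR1 were sought among 11940 genes that averaged 2 CPM or more, by the root mean square distance of log2 CPM centred on each gene's mean. For FOS they were DHRS2 (distance 0.0800), LINC01061, MYO1D, BCHE and MAGEB2 (0.120), and for EGR1 they were BCHE (0.0617), MYO1D, LINC01061, CD274 and EREG (0.0745). MYO1D, BCHE and LINC01061 stood on both lists. MYO1D was at 78.6 ± 0.72, 80.0 ± 2.85 and 46.2 ± 0.85 CPM in empty vector cells and with MEL-18 WT and MEL-18 T334A, in that order, and EREG, which encodes the EGFR ligand epiregulin, at 156 ± 3.03, 144 ± 1.84 and 93.9 ± 1.94. For FOSB, RPE65 was nearest at 0.389, with 3.89 ± 0.30, 2.11 ± 0.16 and 0.443 ± 0.089 CPM. The distance is not scaled to a gene's own spread, so the distances of different members do not compare directly. The SD of log2 CPM over the 9 libraries was 1.21 for FOSB, 0.446 for FOS and 0.346 for EGR1.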

How the data were processed

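The deposited files held raw counts per gene for 9 libraries, made from TruSeq stranded poly(A) libraries per the labels' protocols. The submitters' processing notes name CASAVA 1.8, STAR 2.5.3a, featureCounts of Subread 1.5.3 and the build hg19. Also not given in the sources used here is which annotation, strand setting and rule for multi-mapping reads were chosen.

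Counts were fitted with edgeR 4.0.16 (R 4.3.3) over all 9 libraries: filterByExpr, TMM scaling, group means and the quasi-likelihood F test, two-sided, with Benjamini-Hochberg adjustment over 14738 genes and calls below 0.05. Each SE was derived from the fold change and its F value. Log2 CPM values, used for the pattern distances, the neighbour offset and the check of same-numbered libraries, have a prior count of 2. The log2 fold changes come from the fits, to which this prior was not given. Alternatives used DESeq2 1.42.0, limma 3.58.1 voom, other scaling and filters, a replicate block, an offset from chromosomal neighbours, and the fit without each library. For each group the offset took 20 tested genes on each side, in the RefSeq GRCh38.p14 order. It was the median of their group mean log2 CPM minus their mean over the 9 libraries. The offset can thus differ from the neighbour median given for a comparison, which is a median of log2 fold changes. The code was tested on simulated data. Named are all members, PCGF2, up to 3 called genes in each direction per list and comparison, and the 5 genes nearest in pattern. Members and lists were chosen with earlier results of these data known, so counts over them are descriptions. Some genes stand in more than 1 list (ATF3, SRF, PLAU, CCND1). Some items that the rule would name are not reported here.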

Additional observations from a re-analysis of the deposited data

How the results depend on the processing

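Each value was recomputed under 18 alternatives per comparison. With library totals alone, 1 member was higher with MEL-18 T334A than with the empty vector and 2 than with MEL-18 WT; with no filter on low counts the counts were 1 and 3. Leaving out each library in turn gave 3 to 6 lower members for MEL-18 WT against the empty vector (3 without empty vector replicate 1), 0 to 1 higher for MEL-18 T334A against the empty vector (1, FOSL1, without empty vector replicate 1 or MEL-18 T334A replicate 1) and 1 to 3 higher against MEL-18 WT (2, with JUND, without MEL-18 WT replicate 1, and 3, with FOSL2 and JUND, without MEL-18 T334A replicate 3). JUNB and FOSL1 with MEL-18 WT were not called by DESeq2 (adjusted p = 0.0680 and 0.0643), nor JUNB with library totals (0.0544), nor FOSL1 with the neighbour offset (-0.07, adjusted p = 0.287). Values near 0 changed sign for EGR1 with MEL-18 WT (0.0124 with library totals, 0.00985 without MEL-18 WT replicate 3, and from -0.0377 to 0.0425 over all libraries left out) and for JUND with MEL-18 WT (-0.118 to 0.00368, the latter without empty vector replicate 1); the cause was not tested. In percentage points of shares, the FOSL2 difference between both MEL-18 forms ranged from -0.364 to 1.89 over the libraries left out (-0.364 without MEL-18 WT replicate 2, and -0.120 or -0.286 when MEL-18 T334A replicate 1 or 2 was left out), and the EGR1 difference with MEL-18 WT ranged from -0.133 to 0.0480, the latter without MEL-18 WT replicate 2. With the neighbour offset, log2 values changed sign for EGFR (0.0297) and CCND1 (-0.00381) with MEL-18 WT, for ELK4 with MEL-18 T334A against the empty vector (-0.0804), and between both MEL-18 forms for MAFK (-0.128), ELK4 (-0.0147), SOS1 (0.0104), ETV5 (0.0457) and PDGFA (-0.0582). Of 864 list counts under alternatives, 74 moved by over 1.5 times. Library totals put 60.1%, 64.0% and 58.4% of calls on the higher side, against 50.1%, 51.1% and 51.2% with TMM, for MEL-18 WT and MEL-18 T334A against the empty vector and for both forms.

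Same-numbered libraries did not deviate together (correlations of -0.079 to 0.014 over 9 pairs), so no pairing by number was seen. A pairing that left no shared shift across the tested genes would be missed. With a replicate block 3963, 6496 and 5757 genes were called, against 4242, 6765 and 6034 without it; 5, 6 and 4 members were lower and 0, 0 and 1 higher. The block ended the call of JUNB with MEL-18 WT (adjusted p = 0.0555). Counting depth limits EGR2 and EGR3, with at most 11 counts in a library.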
